A study of Mus musculus with 5 samples.

Results

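The DNA repair and Fanconi pathway genes examined here were 43 genes taken by symbol: the kinases and mediators of the damage response, the homologous recombination machinery, the Fanconi anemia pathway, mismatch and base excision repair factors, and the enzymes that join broken ends. All probe sets whose only symbol in the platform annotation is a member's were used, and 2 that carry the symbol of Rad54b together with that of another gene were not. Of the 43 genes, 42 had a probe set, 96 probe sets in all out of 45101 on the array, and 41 passed the intensity filter (on 2 or more arrays, a value over that array's 40th percentile) and were tested among 12860 genes. Xrcc2 was not analysed here, and the only probe set of Bard1 lay below the filter on all arrays.

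The arrays compared tumor-specific CD4+ T cells in 2 states. Activated cells (3 arrays) were sorted at a purity of at least 95% as CD4+ GB113+ cells from draining axillary lymph nodes, 8 days after TCR-transgenic SCID mice received 100000 MOPC315 myeloma cells under the skin in 250 µl of Matrigel. Nodes of 12 to 15 mice were pooled for each of these experiments. Naive cells (2 arrays) came from pooled lymph nodes of TCR-transgenic SCID mice that had received no tumor. A sort purity and a number of mice per pool are given here for the activated arrays alone. All mice were adults of 7 to 12 weeks on a Balb/c background, and each array was a separate experiment on pooled animals. The promoter that drives the transgene is not given in the sources used here. Both groups carried the SCID trait, which leaves mice with few T and B cells of their own. The classical mouse SCID mutation lies in Prkdc, a member of the set, but the labels do not name the allele and no wild-type cells were analysed here.

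Values are probe set intensities on a linear scale. Each array had a 2% trimmed mean of 100, so differences stand against the array's mean level. The T cell markers were present: all 7 with a probe set, Cd4 and Cd3d among them, lay above the filter on all 5 arrays, with summed intensities of 12751 to 14669 in activated and 12392 to 12729 in naive cells. The 9 myeloid and dendritic markers summed to 2921, 158 and 782 on activated replicates 1, 2 and 3, against 313 and 201 in naive cells, and 5 NK cell markers to 3860, 857 and 999, against 924 and 1117. The 8 B and plasma cell markers summed to 1169 to 1268 in activated and 1209 to 1352 in naive cells, most of it from Xbp1, which T cells also express. Markers outside the label were also measured. The pair of CD8 genes, which CD4+ cells should lack, summed to 271 to 406 in activated and 852 to 1040 in naive cells, most of it from Cd8b1, which had 326.5, 247 and 275 in activated cells and 798 and 996 in naive cells. Activated replicate 1 stood apart, with the myeloid gene Lyz2 at 1954 and the NK receptor gene Ncr1 at 265, against at most 354 and 11.2 on any other array. None of these markers was at 0 on any array, while the dendritic marker Flt3 and the NK marker Klra8 lay below the filter on all arrays. The hybridisation control bioC was low on activated replicate 3 and naive replicate 2 and high on the other three arrays.

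Cells that copy their genome meet stalled forks and broken ends, and they answer with a checkpoint and with repair. The kinase Atr with its effector Chek1 guards replication forks, and Atm with Chek2 responds to double-strand breaks. Homologous recombination copies the sister chromatid and so works in S and G2 phase, the Fanconi pathway removes cross-links between the strands, and end joining acts in all phases, including the assembly of antigen receptor genes in lymphocyte precursors.

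The comparison asks which of these genes differ in level between T cells activated by a tumor in the animal and naive cells of the same specificity. Activated cells had more transcript of the checkpoint genes Clspn, Chek1, Chek2 and Mre11a, of the recombination genes Rad51ap1, Exo1, Rad54l, Brca1 and Blm, and of the uracil glycosylase Ung. On the scale of log2(intensity + 16), on which every log2 difference (activated minus naive) is given, the rises ran from 0.73 for Mre11a to 2.37 for Clspn. Thus 10 of 41 tested members rose and 0 fell in limma's moderated test at an adjusted p under 0.05, against 6.37% of all tested genes higher and 4.14% lower. At an unadjusted p under 0.05, 16 members were higher and 1, Lig3, was lower, against 12.8% and 11.5% of all tested genes. No Fanconi gene and no end-joining gene passed on the probe set used for it, the brightest of each gene. The median log2 difference of the 42 members with a probe set was 0.25, against -0.02 for all 18193 genes with a probe set. The members were listed with earlier results of these data known, so their count is a description.

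Genes of cell division were higher in the same activated cells as the 10 members that passed. All 20 tested genes of a division list rose, with a median log2 difference of 2.81 over those with a probe set. Of all tested genes, 6.37% were higher and 4.14% lower. For 4 of the 20, activated arrays alone lay above the filter. No tested gene of that kind was called lower, so these 4 could count as rises or not at all. Mki67 had 745, 1030 and 983 in activated cells, against 61.9 and 31.7 in naive cells. In these bulk samples more cells with a transcript and more transcript per cell cannot be told apart, and the part of the share of dividing cells in the rises of these 10 was not tested.

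**Figure D1:**
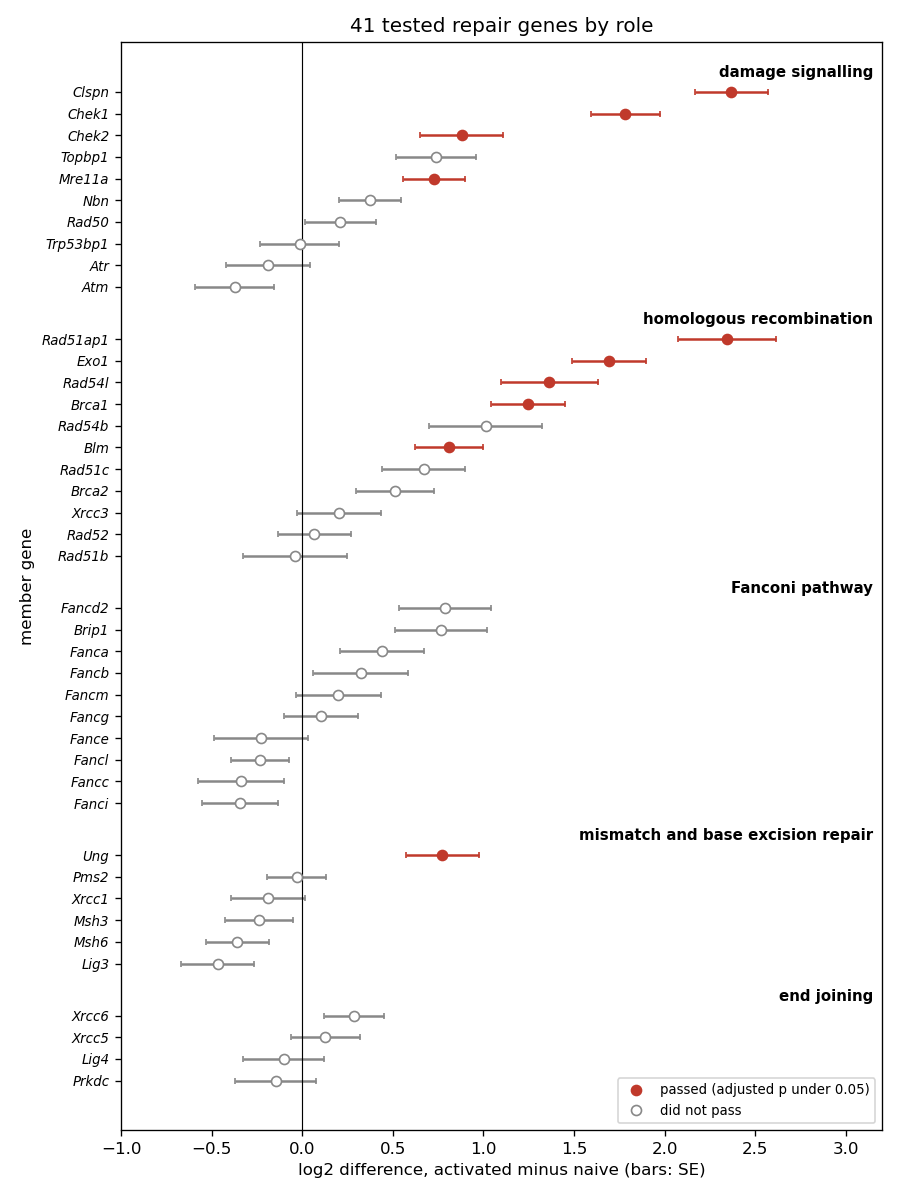
Log2 difference, activated minus naive, of the 41 tested members by role (points, with SE bars from the moderated test); filled red points passed at an adjusted p under 0.05. All 10 filled points lie right of 0, between 0.73 and 2.37, and 9 of them belong to damage signalling and homologous recombination.

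RefSeq promoter windows on GRCm38.p6, from 250 bases before to 50 after the annotated start, were found for 36 members and searched on both strands for the E2F-type letters TTGGCGC and its variants TTCCCGC, then TTGCCGC, then also TTCGCGC, for the box CCAAT, and for the letters TTTGAA. E2F-type letters stood in 22 of 36 member windows (61.1%), against 16.3% of the windows of 10393 tested genes and 9.69% of all 27025 windows. They stood in 6 of 9 windows of members that rose (66.7%) and in 15 of 26 windows of tested members that did not pass (57.7%). CCAAT stood in 58.3% of member windows, against 38.4% for tested genes, and TTTGAA in 2.78%, against 11.9%. The letters can overlap each other and are matches, not shown binding sites.

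The stretches from 90 bases before to 30 bases after the start are printed for 3 members that rose and for 2 that did not, Fanci and Pms2, chosen after their values were seen because each holds an E2F-type match, in capitals, just past the start.
Clspn, chr4:126556890-126557009 (+ strand): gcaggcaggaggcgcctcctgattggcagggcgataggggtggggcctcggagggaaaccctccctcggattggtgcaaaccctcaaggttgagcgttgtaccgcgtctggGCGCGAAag
Rad51ap1, chr6:126939558-126939677 (- strand): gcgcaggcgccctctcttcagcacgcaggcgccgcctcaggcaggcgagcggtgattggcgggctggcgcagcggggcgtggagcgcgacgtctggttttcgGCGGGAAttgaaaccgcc
Brca1, chr11:101551926-101552045 (- strand): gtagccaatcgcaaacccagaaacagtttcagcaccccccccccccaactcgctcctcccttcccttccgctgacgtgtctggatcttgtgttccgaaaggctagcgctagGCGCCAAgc
Fanci, chr7:79392248-79392367 (+ strand): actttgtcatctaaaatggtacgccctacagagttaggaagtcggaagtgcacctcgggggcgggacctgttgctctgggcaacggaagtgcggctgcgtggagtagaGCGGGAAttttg
Pms2, chr5:143909911-143910030 (+ strand): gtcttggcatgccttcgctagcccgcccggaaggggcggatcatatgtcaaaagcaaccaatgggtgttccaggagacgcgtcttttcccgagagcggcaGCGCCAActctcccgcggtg
The match lies at bases 22 to 28 from the start in Clspn and Brca1, 13 to 19 in Rad51ap1, 19 to 25 in Fanci and 11 to 17 in Pms2. The matched letters of Rad51ap1 and Fanci are identical, as are those of Brca1 and Pms2. The log2 differences were 2.34 for Rad51ap1, -0.34 for Fanci, 1.25 for Brca1 and -0.03 for Pms2. Atm, Rad51c and Msh6, which did not pass, also hold a match just past the start and were not printed. Whether the matches bear on the differences was not tested.

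Among the 10 damage signalling genes, 4 rose and 0 fell (median log2 difference 0.55), against 6.37% of all tested genes higher and 4.14% lower. Clspn encodes claspin, the adaptor that brings Chek1 to active Atr at a stalled fork. It had intensities of 135, 164 and 173 in activated cells, against 14.7 and 20.5 in naive cells. Every activated array was far above both naive arrays, and the log2 difference was 2.37 (SE 0.20, adjusted p = 4.9e-05). Its size depends on the constant added before taking logs, at 3.10 with a constant of 1 and 1.44 with 64. A dimmer probe set of Clspn gave 0.89 and did not pass limma's test over probe sets (adjusted p = 0.081).

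Chek1, the kinase that claspin serves, moved with it. Its intensities were 141, 122 and 141 in activated cells and 30.3 and 25.0 in naive cells. The groups did not overlap, and the log2 difference was 1.78 (SE 0.19, adjusted p = 2.1e-04). A second probe set of Chek1 gave 2.05, and the dimmest one above the filter gave 0.23 and did not pass.

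Chek2, the effector kinase of Atm, had 33.8, 33.9 and 42.4 in activated cells, against 12.1 and 13 in naive cells, close to the filter intensity of 10.6 to 13.4. The log2 difference was 0.88 (SE 0.23, adjusted p = 0.035). This call was lost whichever array was left out, with log2 differences of 0.80 to 0.92.

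The nuclease Mre11a, its partner Rad50 and the adaptor Nbn form the complex that first binds a broken end. Mre11a had 188, 199 and 216 in activated cells and 122 and 108 in naive cells, with no overlap, for a log2 difference of 0.73 (SE 0.17, adjusted p = 0.021). The call of Mre11a held without activated replicate 1 and was lost without each of the other arrays, at 0.65 to 0.81. Its partners did not pass: the log2 difference of Nbn was 0.37 (adjusted p = 0.21), with groups that did not overlap, and that of Rad50 was 0.21 (adjusted p = 0.57), with groups that did.

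The apical kinases did not rise. Atm had 522, 509 and 400.2 in activated cells against 786 and 485 in naive cells, a log2 difference of -0.37 (adjusted p = 0.34), and its second probe set lay at -0.56, with activated arrays all below the naive ones. Atr lay at -0.19 (adjusted p = 0.69), with overlapping groups. Another probe set of Atr lay at -0.37, with activated arrays all below the naive ones. The last lay at -0.19 with overlapping groups, and neither passed. Topbp1, the activator of Atr, had 627, 536 and 756 in activated cells and 294 and 472 in naive cells. Its groups did not overlap, but at 0.74 (adjusted p = 0.062) it missed the threshold. Its log2 difference was 1.07 without naive replicate 2 and 0.41 without naive replicate 1. Topbp1 passed at 0.82 with the bioC split of the arrays as a block, but not with averaged probe sets, at 0.20 (adjusted p = 0.67). A dimmer probe set of Topbp1 gave -0.34, with overlapping groups. Trp53bp1, which channels breaks to end joining, lay at -0.01 (adjusted p = 0.98) on its brightest probe set, and its 4 probe sets above the filter ranged from -0.25 to 0.26.

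**Figure D2:**
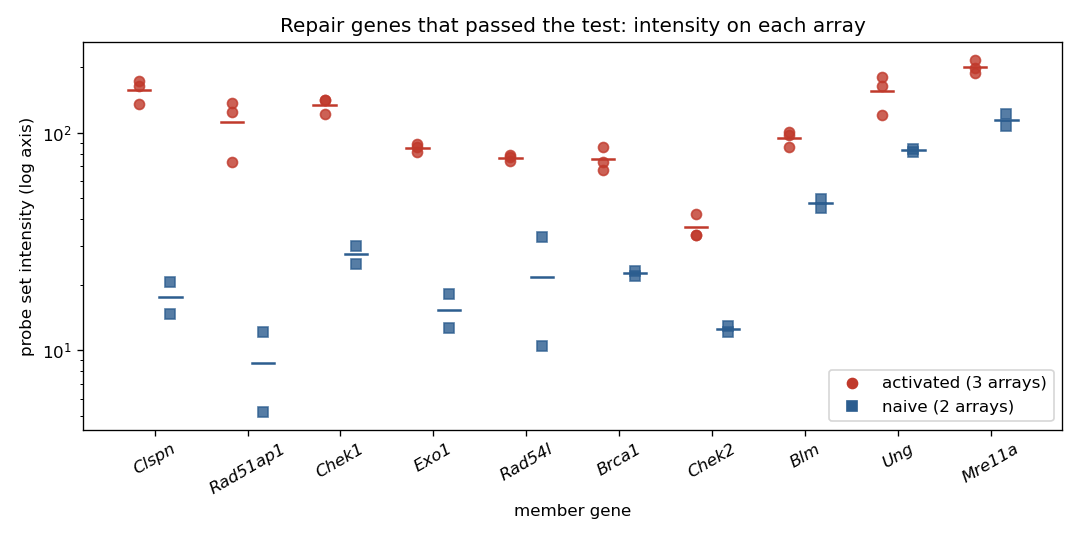
Probe set intensity on each array (log axis) for the 10 members that passed; circles are the 3 activated arrays, squares the 2 naive arrays, and bars are group means. No activated value lies at or below a naive value of the same gene; the gap is widest for Clspn and Rad51ap1 and narrowest for Ung, where the activated values start at 121 against naive values of 84.6 and 81.3.

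Of 11 tested homologous recombination genes, 5 rose and 0 fell, against 6.37% of all tested genes higher and 4.14% lower. Counting Bard1, 12 had a probe set, with a median log2 difference of 0.74. Rad51ap1, a DNA-binding protein that stimulates strand invasion, had 73.1, 137 and 124.5 in activated cells, against 5.2 and 12.2 in naive cells. Naive replicate 1 was below the filter, and the log2 difference was 2.34 (SE 0.27, adjusted p = 3.6e-04), or 3.59 with a constant of 1 and 1.25 with 64. All 4 of its probe sets had groups that did not overlap, with activated arrays higher, against 18.8% of all tested probe sets. Of the 4, 3 passed the test over probe sets, against 4.80% of all tested probe sets higher. Some of the 4 lay above the filter on activated arrays alone and so could hardly count as falls.

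Exo1, an exonuclease that resects broken ends and also serves mismatch repair, had 81.3, 85.6 and 88.7 in activated cells and 18.1 and 12.6 in naive cells. The activated arrays were close together, and the log2 difference was 1.70 (SE 0.20, adjusted p = 4.7e-04). A dimmer probe set of Exo1 gave 0.96 and did not pass limma's test over probe sets (adjusted p = 0.079). Rad54l, a motor protein that remodels DNA during strand exchange, had 79.3, 74.1 and 77.3 in activated cells but differed between the naive arrays, at 33.1 and 10.5. Dimmer probe sets of Rad54l above the filter lay at 0.54, with overlapping groups, and at 0.86, and did not pass over probe sets. Its log2 difference of 1.36 (SE 0.27, adjusted p = 0.0085) was 1.81 without naive replicate 1 and 0.92 without naive replicate 2, where the call was lost.

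Brca1, the ubiquitin ligase subunit that promotes resection and recombination, had 67.4, 73.4 and 86.3 in activated cells, against 21.9 and 23.2 in naive cells. The log2 difference was 1.25 (SE 0.20, adjusted p = 0.0033). Of its 4 probe sets above the filter, 3 passed at 1.05 to 1.37, against 4.80% of all tested probe sets higher. Some of these 3 lay above the filter on activated arrays alone. The fourth probe set of Brca1 lay at -0.26 with overlapping groups. Its partner Bard1 had 8.7, 10.0 and 4.6 in activated cells and 1.3 and 0.6 in naive cells, which is too dim to test here. Blm, the helicase mutated in Bloom syndrome, had 85.9, 101 and 98.1 in activated cells and 45.2 and 49.4 in naive cells, a log2 difference of 0.81 (SE 0.19, adjusted p = 0.021). Blm kept its call without activated replicate 1 and lost it without each other array, at 0.76 to 0.86.

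The remaining recombination genes did not pass. Rad54b, a relative of Rad54l, had 12.2, 20 and 34.4 in activated cells, against 4.3 and 0.7 in naive cells. It was the only tested member above the filter on activated arrays alone, and its log2 difference was 1.01 (adjusted p = 0.069). Brca2, which loads the strand-exchange recombinase, had 90.8, 59.6 and 73.5 in activated cells and 51.6 and 42.5 in naive cells, with a log2 difference of 0.51 (adjusted p = 0.18). Among paralogs of that recombinase, Rad51c lay at 0.67 (adjusted p = 0.10) with groups that did not overlap, while Xrcc3, at 0.20, and Rad51b, at -0.04, had overlapping groups. Rad52, an annealing protein, lay at 0.07 (adjusted p = 0.89).

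**Figure D3:**
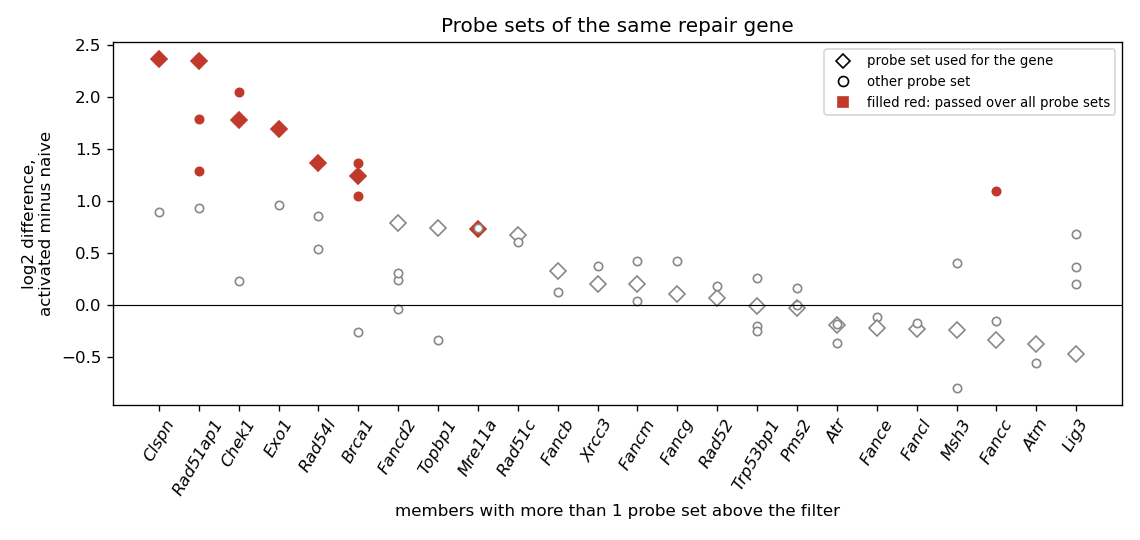
Log2 difference, activated minus naive, of each probe set above the filter for the 24 members with more than 1; diamonds are the probe sets used for the gene, circles the others, and filled red symbols passed the test over all probe sets. Clspn, Rad51ap1, Chek1, Exo1, Rad54l, Brca1, Mre11a and Fancc have a filled symbol, and for Fancc the filled one, at 1.09, is not the probe set used.

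On the probe set used for each gene, none of the 10 Fanconi genes passed in either direction, and 2, Fancd2 and Brip1, were higher at an unadjusted p under 0.05, where 12.8% of all tested genes lay. After adjustment 6.37% of all tested genes were higher and 4.14% lower, shares at which a list of 10 holds few calls. Fancd2, which the pathway tags with ubiquitin at a cross-link, had 44.3, 43.9 and 52.3 in activated cells and 29.9 and 12.8 in naive cells. The groups did not overlap, and the log2 difference was 0.79 (adjusted p = 0.081). It was 1.12 without naive replicate 1, where Fancd2 passed, and 0.45 without naive replicate 2. Of its 4 probe sets above the filter, the others lay at -0.04 to 0.31, all with overlapping groups. The helicase Brip1, a partner of Brca1, had 40.9, 26.9 and 40.2 in activated cells and 10.5 and 18.7 in naive cells, with a log2 difference of 0.77 (adjusted p = 0.088). Fanci, the partner that is tagged together with Fancd2, lay on the other side of 0 at -0.34 (adjusted p = 0.36), with intensities of 44.9, 60.5 and 63.9 in activated cells and 68.9 and 82.0 in naive cells.

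The core complex, which attaches the ubiquitin, showed no call. Its catalytic subunit Fancl had 242, 264.5 and 285 in activated cells and 303.5 and 322 in naive cells, a log2 difference of -0.24 (adjusted p = 0.42). Fanca lay at 0.44, Fancb at 0.32, the translocase Fancm at 0.20, Fancg at 0.10 and Fance at -0.23, all with overlapping groups. A dimmer probe set of Fancg lay at 0.42, with activated arrays all above the naive ones, and did not pass. Fancc depended on the probe set. The brightest, used for the gene, had 16.2, 26.3 and 23.9 in activated cells against 29.3 and 34.6 in naive cells, a log2 difference of -0.34 (adjusted p = 0.44). Another had 28.2, 43 and 36.3 in activated cells, against 14.1 and 3.3 in naive cells, and passed over all probe sets at 1.09 (adjusted p = 0.039).

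Of 6 mismatch and base excision repair genes, 1 rose and 0 fell (median log2 difference -0.21). All tested genes were 6.37% higher and 4.14% lower, shares at which a list of 6 holds few calls. Ung, which cuts uracil out of DNA, had 164.5, 180.1 and 121 in activated cells, against 84.6 and 81.3 in naive cells. Its log2 difference was 0.77 (SE 0.20, adjusted p = 0.035). The call was lost in the fit over all probe sets (adjusted p = 0.054) and without each array but activated replicate 3, at 0.67 to 0.80. Lig3, the ligase of base excision repair, had 104, 141 and 98.0 in activated cells and 178 and 148 in naive cells, a log2 difference of -0.47 (adjusted p = 0.18). Its other 3 probe sets above the filter lay between 0.20 and 0.68, and none passed. The mismatch recognition subunits Msh6 and Msh3 lay at -0.36 (adjusted p = 0.24) and -0.24 (adjusted p = 0.49). Other probe sets of Msh3 above the filter lay at 0.41, with overlapping groups, and at -0.80, and did not pass. At -0.80 the activated arrays were all below the naive ones. Pms2, which nicks the strand to be repaired, lay at -0.03 and the scaffold Xrcc1 at -0.19.

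The 4 end-joining genes had a median log2 difference of 0.01, and 0 passed in limma, adjusted or unadjusted. Of all tested genes 6.37% were higher and 4.14% lower after adjustment, and 12.8% and 11.5% before it. A list of 4 holds few calls at such shares. Prkdc, the DNA-dependent protein kinase, had 151, 144 and 156 in activated cells, which lay between naive values of 126 and 222, and a log2 difference of -0.15 (SE 0.22, adjusted p = 0.75). The Ku subunits Xrcc6 and Xrcc5, which capture the ends, lay at 0.29 ± 0.16 and 0.13 ± 0.19 (SE), and the ligase Lig4 at -0.10 ± 0.22 (SE). Groups did not overlap for Xrcc6, with 194, 206 and 225 in activated cells and 175 and 160.2 in naive cells.

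Over all 41 tested members, the activated arrays lay above both naive arrays for 18 and below both for 5, against 20.3% and 20.7% of all tested genes. The 18 were the 10 that passed and 8 others. The 5 were Fancc, Fancl, Fanci, Msh6 and Lig3. In the fit over 29201 probe sets, 15 of the members' 82 tested probe sets were higher and 0 lower, against 4.80% and 2.94% of all tested probe sets. These 15 belonged to 10 genes: the genes that passed, without Ung and with Fancc. The probe sets used for Chek1, Mre11a and Ung carry a suffix that marks sequence shared by several transcripts.

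**Figure D4:**
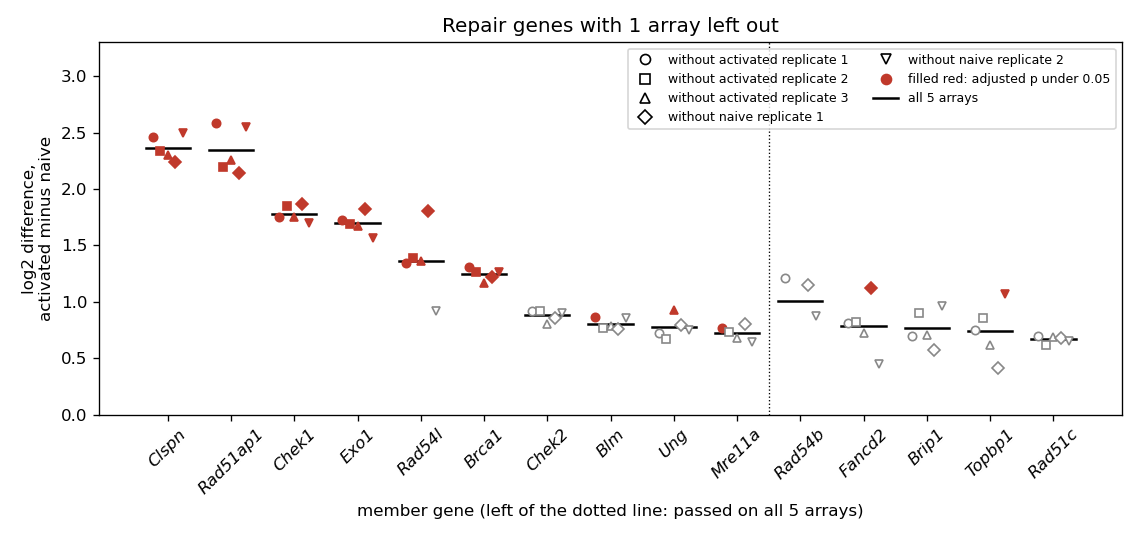
Log2 difference, activated minus naive, after leaving out 1 array (symbols, by the array left out) for the 10 members that passed and, right of the dotted line, 5 that came close; lines are values on all 5 arrays, and filled red symbols have an adjusted p under 0.05. Clspn, Rad51ap1, Chek1, Exo1 and Brca1 are filled throughout, while Chek2 is filled under none of the 5 omissions.

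Clspn, Rad51ap1, Chek1, Exo1 and Brca1 passed under all 17 alternative settings tried. The count of members that rose was 6 without activated replicate 2, and 6 without naive replicate 2, of which 5 were among the 10 and 1 was Topbp1. Without naive replicate 1, which leaves 1 naive array, Blm, Chek2, Mre11a and Ung were lost. The Fanconi gene Fancd2 joined there, at a log2 difference of 1.12. Activated replicate 1, with the high myeloid and NK sums, lay above the mean of the other activated arrays for 3 of the 10 members that passed, with a median log2 difference of -0.125. Without it, 8 of the 10 passed, Chek2 and Ung being lost. The part of other cell types in the members' differences was not tested. With the bioC split as a block, an alternative chosen after seeing the data, all 10 passed, Topbp1 joined them, and Atm was lower at -0.45 (adjusted p = 0.046). On the high bioC side (activated replicates 1 and 2, naive replicate 1) and on the low side (activated replicate 3, naive replicate 2), Clspn differed by 2.43 and 2.38, Rad51ap1 by 2.46 and 2.32, and Rad54l by 0.92 and 1.82. The p-values measure the spread between experiments on pooled mice.

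Other repair genes, in lists that hold no member, give the setting. Of 87 tested, 13 rose (14.9%) and 1 fell (median log2 difference 0.07), against 6.37% of all tested genes higher and 4.14% lower. Rises lay in damage signalling (4 of 16, Wee1 at 1.82 and Tipin at 1.33 leading), recombination (4 of 20, Dna2 at 1.49 and Rpa2 at 1.02 leading), the Fanconi pathway (1 of 7, its ubiquitin-conjugating enzyme Ube2t at 1.18) and mismatch and base excision repair (4 of 19, the replicative ligase Lig1 at 1.44 and Neil3 at 1.12 leading). Smug1, another uracil glycosylase, fell by 0.68 (adjusted p = 0.049). Its call was lost without each array in turn, and with median centring, no filter, a constant of 1 or no trend in the test. In limma, 0 of 14 nucleotide excision repair genes, 0 of 7 translesion genes and 0 of 4 further end-joining genes passed. Among all tested genes 6.37% were higher and 4.14% lower, shares at which lists this short hold few calls. At an unadjusted p under 0.05, 1 of the first and 2 of the second were lower, and 0 of any of these lists were higher, against 11.5% of all tested genes lower and 12.8% higher.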

How the data were processed

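The deposited table holds linear-scale probe set intensities, 1 for each array. Per the labels' protocols, biotin-labelled cRNA was made from 6 µg of total RNA for Affymetrix arrays. How probes were summarised, and any detection calls, is not given in the sources used here. Any pair of arrays shared at most 0.947% identical values, so none was counted as a copy. The number of arrays limits precision.

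For each of 18193 genes the probe set with 1 symbol and the highest mean was used. Genes were tested where at least 2 arrays gave a value over their own 40th percentile. Values were transformed as log2(intensity + 16), which understates differences of dim genes. Array medians differed by 0.17, so no between-array step was added. Groups were compared in limma 3.58.1 under R 4.3.3 (lmFit, then eBayes with its trend option) by two-sided tests, and p-values were adjusted by Benjamini and Hochberg's method over all tested genes or probe sets. The fit was tested on simulated data. Errors marked SE are those of the moderated test. Alternatives are named in the closing section. The members and lists were chosen with earlier results of these data known. All members were named, and of other gene lists the 2 largest rises and falls that passed, with Mki67, Xbp1 and single markers named after their values were seen.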

Additional observations from a re-analysis of the deposited data

How the results depend on the processing

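All 10 members that passed kept their sign wherever they were tested under the alternatives: pseudocounts of 1 and 64, quantile normalization or median centring, the filter dropped or set at the 60th percentile, averaged probe sets, probe sets without a shared-sequence suffix, robust variances, no trend in eBayes, the replicate block, the bioC split as a block (chosen after seeing the data) and leaving out each array. Leaving out 1 array gave 463 to 713 genes higher and 185 to 508 lower, 6 to 8 members higher and 0 lower, 8 to 11 other repair genes higher and 0 lower, and 8 to 12 member probe sets higher. Without the filter 349 genes were lower, and with the bioC split as a block 859, with 1 member and 2 other repair genes lower. The fall of Smug1 was lost (0 other repair genes lower) with median centring, without the filter, with a pseudocount of 1 and without the trend. Without the filter Blm, Chek2 and Ung lost their calls, more genes being tested. Chek2 lost its call at the 60th percentile because it was not tested there, Ung without the trend, and Mre11a on probe sets without a suffix, of which Ung has none tested. Averaged probe sets added Brip1 and Rad54b. The labels describe independent experiments, so no pairing was assumed in the main test. Deviations of activated replicates 1, 2 and 3 from their group mean correlated at 0.17, 0.13 and -0.31 with those of naive replicate 1. With 2 naive arrays, the values for naive replicate 2 are the same with the sign turned, so they cannot decide on pairing. With the replicate block 974 genes were higher and 793 lower, and 9 members were higher, Chek2 being lost.

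Signs turned for members that did not pass. With averaged probe sets Trp53bp1 lay at 0.054, Fancc at 0.20, Pms2 at 0.042, Lig3 at 0.17 and Xrcc6 at -0.14. Trp53bp1 also lay at 0.0039 with quantile normalization, 0.26 without suffixed probe sets and 0.072 with the bioC block. Leaving out 1 array gave -0.49 to 0.11 for Atr, -0.24 to 0.22 for Trp53bp1, -0.27 to 0.18 for Rad51b, -0.15 to 0.28 for Rad52, -0.0016 to 0.20 for Fancg, -0.083 to 0.020 for Pms2, -0.11 to 0.37 for Xrcc5, -0.52 to 0.22 for Prkdc and -0.37 to 0.17 for Lig4. The cause was not tested. Dim naive values limit the size of the rises of Rad51ap1, Clspn, Exo1, Chek2 and Rad54l.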

Other observations

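Genes known to be induced after DNA damage were listed apart from the repair genes. Of 15 tested, 2 rose and 1 fell (median log2 difference 0.04 over the 17 with a probe set), against 6.37% of all tested genes higher and 4.14% lower. Cdkn1a, an inhibitor of cyclin-dependent kinases, had 81.3, 40.1 and 34.6 in activated cells, against 6.3 and 6.3 in naive cells, a log2 difference of 1.55 (SE 0.30, adjusted p = 0.0084). Both naive values of Cdkn1a lay below the filter. No tested gene above the filter on activated arrays alone was called lower, so Cdkn1a could count as a rise or not at all. Pmaip1, which encodes the death-promoting protein Noxa, rose by 1.04 (adjusted p = 0.014). Rrm2b, a ribonucleotide reductase subunit of cells outside S phase, had 111, 148.5 and 198 in activated cells and 262 and 325.5 in naive cells, and fell by 0.90 (adjusted p = 0.030).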
